A study of Homo sapiens with 6 samples.

Results

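The CDK inhibitor genes of the CIP and INK4 families, with the phosphatase gene CDKN3, were followed by RNA-seq in HCT116 cells during p53 activation. The 8 genes (CDKN1A, CDKN1B, CDKN1C, CDKN2A, CDKN2B, CDKN2C, CDKN2D and CDKN3) were found by their Ensembl identifiers among the 57905 genes of the count table, each in 1 row, and all 8 were among the 16565 genes that passed the low-count filter and were tested. HCT116 is a human colorectal carcinoma line with wild-type p53. The cells received Nutlin-3a at 10 µM, which blocks the binding of p53 to its inhibitor MDM2, for 1 h (Nut 1h) or 10 h (Nut 10h), and control cells received the vehicle DMSO (Nut 0h). Each condition had 2 replicates, biological ones by the study's methods, so that 6 libraries were compared, all from this single cell line and with no line lacking p53 among them.

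CDK inhibitors restrain the kinases that drive the cell cycle. The CIP proteins (p21, p27 and p57) bind complexes of cyclins with CDK2 and other CDKs, whereas the INK4 proteins (p16, p15, p18 and p19) bind CDK4 and CDK6 and keep cyclin D away. Either way the pocket protein RB1 stays unphosphorylated and holds E2F factors, the activators of S-phase genes, in check. CDKN1A, which encodes p21, is the classical target through which p53 halts the cell cycle, while CDKN2A also encodes ARF, a separate protein that binds MDM2.

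The deposited counts summed to between 26068076 and 35473485 per library. MDM2, itself a p53 target, was used as a check of the treatment and had 1688 and 2083 normalised counts in the vehicle libraries, 8694 and 8500 after 1 h and 22633 and 27946 after 10 h, so that the 3 conditions followed each other without overlap. The summed normalised counts of 6 epithelial marker genes ranged from 171235 to 201090 in vehicle, from 116477 to 126657 after 1 h and from 217761 to 260550 after 10 h, with KRT8 as the largest contributor. After 1 h, 4 of these 6 genes were called lower than in vehicle and 2 higher (EPCAM at 0.46 and CDH1 at 0.51). Among all tested genes, 32.3% were called lower in that comparison and 34.5% higher. The GC content of the 4 lower genes lay between 55.7% (KRT18) and 61.8% (KRT19), above that of EPCAM (44.3%) and CDH1 (48.2%). After 10 h, EPCAM alone was called lower than in vehicle (-0.32) and 2 markers higher, where 14.9% of all tested genes were lower and 14.1% higher. At most 7 counts per library fell on the 3 leukocyte markers. The 2 endothelial markers together had between 11 and 23 counts per library. Of the fibroblast markers, DCN was at 0 in all 6 libraries, and COL1A2 had 25 counts in Nut 10h replicate 2 and at most 1 in every other library. COL1A1 held most of the counts, between 621 and 1484 per library. It was called lower at Nut 1h against Nut 0h (log2 fold change -0.78) and not called at Nut 10h (-0.16). Mitochondrial transcripts took between 4.99% and 7.06% of the counts at Nut 0h and Nut 10h and 8.44% and 8.15% at Nut 1h. The part of these marker and mitochondrial differences in the results was not tested. In such bulk RNA, fewer cells that express a gene and less of its RNA per cell cannot be told apart.

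At Nut 10h, CDKN1A stood far above every other CDK inhibitor gene and above its own level in vehicle. All 8 genes passed the test at this time, CDKN1A and CDKN2B as higher and the other 6 as lower than at Nut 0h, beside 14.1% of all tested genes called higher and 14.9% called lower. At Nut 1h none was called higher and 4 were called lower (CDKN1C, CDKN2A, CDKN2C and CDKN2D), beside 34.5% and 32.3% of all tested genes. The values below are normalised counts, that is counts scaled by TMM to the mean library size, and log2 fold changes are given with their standard errors (SE) and Benjamini-Hochberg adjusted p-values from the quasi-likelihood test of edgeR, fitted on every tested gene. Genes with an adjusted p-value of 0.05 or less were called.

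**Figure D1:**
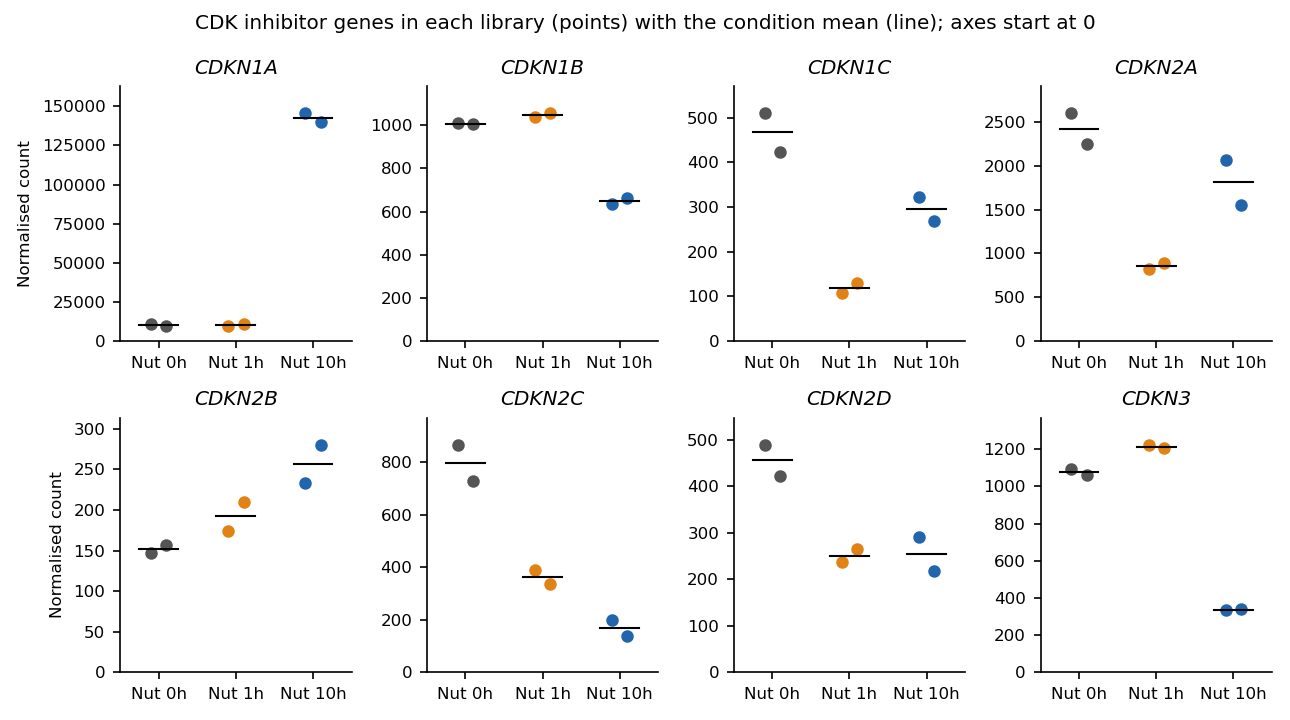
Normalised counts (vertical axis, starting at 0 and scaled to each gene) of the 8 genes in the 2 libraries (points) of each condition (horizontal axis), with a line at the condition mean. CDKN1A stayed at or below 10726 at Nut 0h and Nut 1h and was at or above 139682 at Nut 10h, whereas CDKN2C stepped down at each time and CDKN1C and CDKN2A were lowest at Nut 1h.

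CDKN1A (ENSG00000124762) lies on the plus strand at chr6:36644237-36655114 (GRCh37). The p53 response element, a pair of adjoining half-sites of 10 bases, was searched in the GRCh37 sequence from 5000 bases before to 1000 bases after the start of the canonical transcript of each gene, with the core of each half-site intact, at most 2 mismatches elsewhere and no spacer. CDKN1A held 1 match, which begins 2265 bases before the start site and lies at chr6:36644226-36644245, across the annotated 5′ end of the gene, where the first exon of a longer transcript begins. CDKN2C (INK4 family) held the only other match among the 8 genes, 4679 bases before its start site at chr1:51431238-51431257, in the first intron of a longer transcript. A match of this kind was present in 3.08% of 19120 windows of protein-coding genes. Both are shown on the plus strand, which is the strand of either gene, with the 20 bases of the match in capitals, since they set the gene that rose most beside a gene that fell.
CDKN1A: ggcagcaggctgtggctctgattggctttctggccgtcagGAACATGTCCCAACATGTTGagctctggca
CDKN2C: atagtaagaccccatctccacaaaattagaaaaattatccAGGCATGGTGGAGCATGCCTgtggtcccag
Such a match describes the letters of the window and says nothing of binding in these cells.

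CDKN1A had 10629 and 9286 normalised counts in the vehicle libraries, 9837 and 10726 after 1 h and 145531 and 139682 after 10 h. The Nut 1h libraries bracketed one of the vehicle libraries, and both Nut 10h libraries lay far above the other 4. Against Nut 0h, CDKN1A rose 14.3-fold at Nut 10h (log2 fold change 3.84, SE 0.11, adjusted p = 1.03e-10). At Nut 1h its log2 fold change was 0.05 (95% confidence interval -0.17 to 0.26, adjusted p = 0.704), so that no change in its RNA level was called. It was called higher at Nut 1h when a smooth trend on GC content (0.73, adjusted p = 1.02e-06) or on transcript length (0.30, adjusted p = 0.0107) was taken out of each library, here called the GC-content and the length offset. From Nut 1h to Nut 10h the log2 fold change was 3.79 (SE 0.11, adjusted p = 6.53e-11), and it was 3.14 under the GC-content offset, still called. Its share of all counts was 0.031% and 0.0281% in the vehicle libraries and 0.43% and 0.429% after 10 h. Ranked by count among all genes it moved from place 540 and 578 at Nut 0h to place 12 and 14 at Nut 10h. Next to CDKN1A, the protein-coding gene RAB44 had at most 13 counts in any library.

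The RefSeq window of the CDKN1A start site (GRCh38.p14) holds 4 copies of the GC box GGGCGG, the kind of site bound by SP1. Its 250 bases before the start, chr6:36678464-36678713 on the plus strand, are shown with the GC boxes in capitals, 2 of which share a base.
CDKN1A: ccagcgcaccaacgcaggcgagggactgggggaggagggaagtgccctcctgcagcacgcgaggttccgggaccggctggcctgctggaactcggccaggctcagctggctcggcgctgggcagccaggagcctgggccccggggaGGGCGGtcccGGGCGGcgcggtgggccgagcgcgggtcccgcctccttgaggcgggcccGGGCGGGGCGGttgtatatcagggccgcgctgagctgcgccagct
A GC box on either strand was present in 45.0% of the 35116 RefSeq windows of the same 300 bases.

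CDKN1B (ENSG00000111276, chr12:12838432-12875303, plus strand) encodes p27, the CIP inhibitor that holds cyclin E with CDK2 in resting cells. It had 1009 and 1007 normalised counts in the vehicle libraries, 1038 and 1056 after 1 h and 636 and 664 after 10 h. The Nut 1h libraries were slightly above the vehicle libraries, and the Nut 10h libraries were the lowest pair. The gene fell 1.55-fold at Nut 10h against Nut 0h (log2 fold change -0.63, SE 0.10, adjusted p = 0.000224), whereas at Nut 1h the log2 fold change was 0.06 (SE 0.10, adjusted p = 0.627), and -0.43 with the GC-content offset (adjusted p = 0.000295). CDKN1B thus moved against CDKN1A at Nut 10h. Its annotated span overlaps the opposite-strand gene GPR19, which had between 11 and 43 counts per library. GPR19 was itself called lower at Nut 10h against Nut 0h (log2 fold change -1.77, adjusted p = 0.00267). Whether the reads were counted by strand is not given in the sources used here, and any sharing of reads between both genes was not tested.

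CDKN1C (ENSG00000129757, chr11:2904443-2907005, minus strand) encodes p57, an imprinted CIP inhibitor best known from embryonic growth. It had 510.2 and 424 normalised counts in the vehicle libraries, 108 and 129.6 after 1 h and 323 and 269.9 after 10 h. The 3 conditions did not overlap, with the lowest values at Nut 1h and intermediate values at Nut 10h. At Nut 1h it was 3.95-fold lower than at Nut 0h (log2 fold change -1.98, SE 0.16, adjusted p = 2.71e-07), the largest fall among the 8 genes at this time, and with the GC-content offset the change was -0.81. At Nut 10h it was 1.58-fold lower than at Nut 0h (log2 fold change -0.66, SE 0.14, adjusted p = 0.00285) and above its Nut 1h level (log2 fold change 1.32, SE 0.16, adjusted p = 6.44e-06). With the offset the difference between Nut 10h and Nut 1h was 0.23 (adjusted p = 0.138) and was no longer called.

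CDKN2A (ENSG00000147889, chr9:21967751-21995300, minus strand) encodes the INK4 inhibitor p16 and, from another first exon, ARF. The table has 1 row for both products, which therefore cannot be told apart. It had 2602 and 2249 normalised counts in the vehicle libraries, 827 and 892 after 1 h and 2069.9 and 1559.6 after 10 h. As with CDKN1C, the lowest pair was at Nut 1h and the Nut 10h pair fell between the others. The gene was 2.82-fold lower at Nut 1h than at Nut 0h (log2 fold change -1.50, SE 0.13, adjusted p = 5.11e-07) and 2.11-fold higher at Nut 10h than at Nut 1h (log2 fold change 1.08, SE 0.13, adjusted p = 5.91e-06). With the GC-content offset these changes were -0.79 and 0.40, both still called. At Nut 10h against Nut 0h the log2 fold change was -0.42 (SE 0.13, adjusted p = 0.0227). This last call was lost without Nut 0h replicate 1 (log2 fold change -0.31), Nut 10h replicate 2 (-0.21) or either Nut 1h replicate (-0.42 for each), with an adjusted p of up to 0.228.

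CDKN2B (ENSG00000147883, chr9:22002902-22009304, minus strand) encodes p15, the INK4 inhibitor known as a target of TGF-beta signalling, and lies next to CDKN2A. It had 147 and 157 normalised counts in the vehicle libraries, 175 and 210.2 after 1 h and 233 and 280.1 after 10 h. The gene had the fewest counts of the 8 at Nut 0h, and its conditions formed an ascending series without overlap. At Nut 10h it was 1.69-fold higher than at Nut 0h (log2 fold change 0.76, SE 0.15, adjusted p = 0.00201). Its change at Nut 1h was 0.33 on the log2 scale (95% confidence interval -0.01 to 0.68, adjusted p = 0.0789) and did not pass the test, and it was -0.05 with the GC-content offset (adjusted p = 0.817) and 0.38 with the length offset (adjusted p = 0.0452). From Nut 1h to Nut 10h the log2 fold change was 0.42 (SE 0.15, adjusted p = 0.0240), a call that was lost with DESeq2 (0.44) and when Nut 1h replicate 1 (0.28) or Nut 10h replicate 2 (0.33) was left out. CDKN2A and CDKN2B are relatives by sequence, yet only 0.794% of the 50-base stretches of the CDKN2B exons also occur in CDKN2A exons. The antisense gene CDKN2B-AS1 overlaps both spans on the opposite strand and had between 5 and 14 counts per library.

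CDKN2C (ENSG00000123080, chr1:51426417-51440306, plus strand) encodes p18, an INK4 inhibitor whose transcription follows E2F factors. It had 866 and 729.7 normalised counts in the vehicle libraries, 389 and 336 after 1 h and 198 and 139.6 after 10 h. Every library of a later condition lay below every library of the earlier one. The fall was 2.19-fold at Nut 1h (log2 fold change -1.13, SE 0.15, adjusted p = 1.33e-05) and 4.73-fold at Nut 10h (log2 fold change -2.24, SE 0.16, adjusted p = 1.12e-07), both against Nut 0h. The step from Nut 1h to Nut 10h was also called, at -1.11 on the log2 scale (SE 0.17, adjusted p = 3.98e-05). Under a GC-content offset CDKN2C changed by -0.43 at Nut 1h and by -1.77 from there to Nut 10h, both called. At Nut 10h against Nut 0h CDKN2C had the largest fall among the 8 genes. FAF1, whose span ends 0.478 kb from that of CDKN2C on the opposite strand, had log2 fold changes of -0.29 at Nut 1h and -0.30 at Nut 10h.

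CDKN2D (ENSG00000129355, chr19:10677136-10679735, minus strand) encodes p19, the remaining INK4 inhibitor. It had 489 and 422 normalised counts in the vehicle libraries, 238 and 264 after 1 h and 292 and 218 after 10 h. The vehicle libraries were the highest pair, and the Nut 1h libraries lay within the range of the Nut 10h libraries. It was 1.82-fold lower at Nut 1h (log2 fold change -0.86, SE 0.15, adjusted p = 0.000164) and 1.79-fold lower at Nut 10h (log2 fold change -0.84, SE 0.15, adjusted p = 0.000702) than at Nut 0h. Between both treated conditions the log2 fold change was 0.02 (95% confidence interval -0.31 to 0.36, adjusted p = 0.901). Under a GC-content offset CDKN2D lost its call at Nut 1h, where the change was 0.08 (adjusted p = 0.595), and that from Nut 1h to Nut 10h was -0.87 (adjusted p = 1.37e-05), called lower.

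CDKN3 (ENSG00000100526, chr14:54863567-54886936, plus strand) encodes a phosphatase that removes the activating phosphate from CDK2 and is itself most abundant in dividing cells. It had 1091 and 1063 normalised counts in the vehicle libraries, 1223 and 1204 after 1 h and 336 and 339.7 after 10 h. The replicates lay close together, with the Nut 1h pair the highest and the Nut 10h pair far below the rest. CDKN3 fell 3.19-fold at Nut 10h against Nut 0h (log2 fold change -1.67, SE 0.10, adjusted p = 2.68e-08) and 3.59-fold against Nut 1h (log2 fold change -1.84, SE 0.10, adjusted p = 3.80e-09). At Nut 1h against Nut 0h the log2 fold change was 0.17 (SE 0.09, adjusted p = 0.121). It was called lower with the GC-content offset (-0.23, adjusted p = 0.0222) and higher with the length offset (0.35, adjusted p = 0.00294).

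The window of CDKN3 was the only one of the 10 RefSeq windows of these genes (7 genes matched, CDKN1C did not) with the letters TTTGAA. These are the letters of the cell cycle homology region, an element known from genes of the late cell cycle. The match lies on the opposite strand as TTCAAA and begins 170 bases before the start. The same window holds the CCAAT box, CCAAT, at 208 bases before the start and its reverse form ATTGG at 83 bases before it. The 250 bases before the start, chr14:54396757-54397006 (GRCh38.p14, plus strand), are shown with these 3 matches in capitals.
CDKN3: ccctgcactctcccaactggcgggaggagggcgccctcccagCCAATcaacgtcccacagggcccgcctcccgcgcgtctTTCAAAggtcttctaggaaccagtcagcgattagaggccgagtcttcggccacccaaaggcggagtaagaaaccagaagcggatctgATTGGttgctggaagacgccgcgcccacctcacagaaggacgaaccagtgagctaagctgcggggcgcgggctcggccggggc
On either strand TTTGAA was present in 15.2% and CCAAT in 34.6% of the 35116 windows. TTTGAA in 1 of the 10 windows was near the share of all windows. Such matches describe letters and say nothing of binding in these cells. CCAAT was also found in windows of CDKN1B, CDKN2C and CDKN2D, and the GC box in windows of CDKN1B, CDKN2A, CDKN2B, CDKN2C and CDKN2D. The E2F-type sites TTTCCCGC, TTTCGCGC, TTTGCCGC and TTTGGCGC, at least 1 of which was present in 3.31% of windows, and the TATA box TATAAA, present in 11.5%, were in none of the 10 windows. Matches of different motifs did not overlap in these windows, while GC boxes overlapped each other in CDKN1A and in CDKN2C.

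Set beside all tested genes, the 8 genes differed between the times in how often they were called. At Nut 1h against Nut 0h, 34.5% of the 16565 tested genes were called higher and 32.3% lower, beside 0 and 4 of the 8 genes. At an unadjusted p under 0.05 edgeR also gave 0 higher and 4 lower, as did the calls of DESeq2. The shares of all tested genes in these settings are not given here. The median log2 fold change of the 8 genes was -0.41, against 0.05 over all tested genes. At Nut 10h against Nut 0h, 14.1% of tested genes were called higher and 14.9% lower, beside 2 and 6 of the 8, and the medians were -0.64 for the 8 genes and 0.00 over all genes. From Nut 1h to Nut 10h, 34.2% were called higher and 33.7% lower, beside 4 and 3 of the 8, with CDKN2D not called and medians of 0.22 and -0.02. At an absolute log2 fold change of at least 1 in addition, 3 of the 8 genes remained called at Nut 10h against Nut 0h, namely CDKN1A, CDKN2C and CDKN3. The share of all tested genes that met this added threshold is not given here. Comparisons against Nut 0h share the vehicle libraries, those with Nut 1h share the Nut 1h libraries, and those with Nut 10h share the Nut 10h libraries. The 3 comparisons are therefore not independent of each other.

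**Figure D2:**
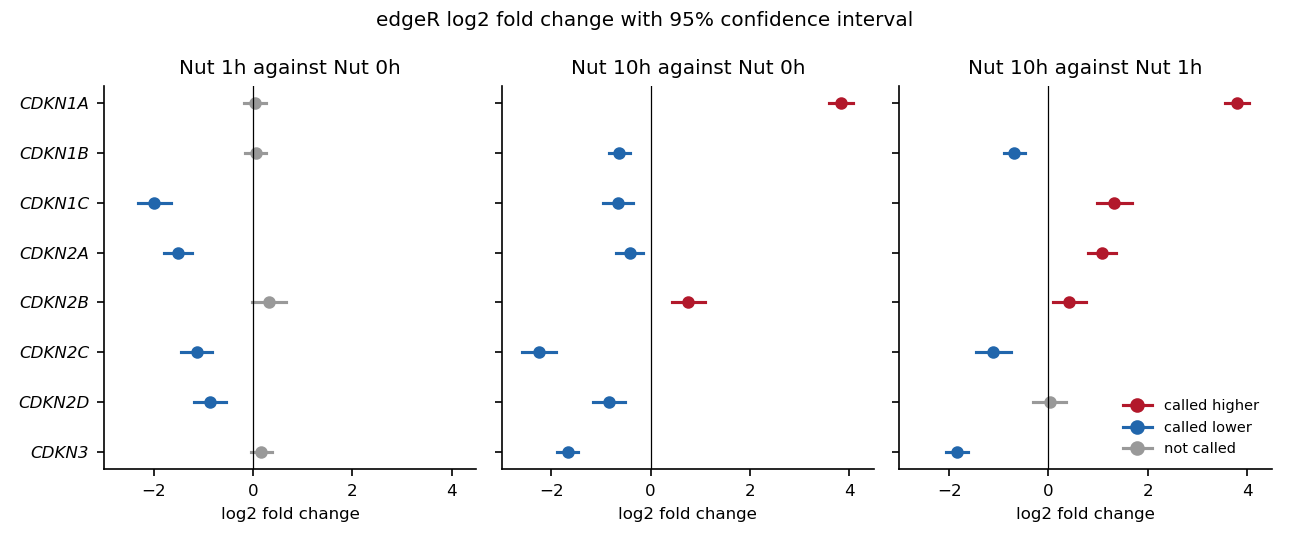
Log2 fold change (horizontal axis) of each gene (vertical axis) in the 3 comparisons, with 95% confidence intervals as lines and the call in colour. At Nut 10h against Nut 0h, CDKN1A at 3.84 and CDKN2B at 0.76 lie to the right of 0 and the other 6 genes to the left, down to -2.24 for CDKN2C.

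Both comparisons that include Nut 1h went with the base composition of the transcripts. Genes called lower at Nut 1h against Nut 0h had a median GC content of 58.3% and genes called higher one of 41.3%, against 48.7% over all tested genes with a value. At Nut 10h against Nut 0h these medians were 51.0% and 48.9%. From Nut 1h to Nut 10h the order was reversed, with 41.8% for genes called lower and 57.5% for genes called higher. The 4 CDK inhibitor genes called lower at Nut 1h were rich in GC, with 63.8% for CDKN1C, 61.2% for CDKN2D, 58.3% for CDKN2A and 58.1% for CDKN2C, as was CDKN1A with 58.0%. CDKN2B (44.2%), CDKN3 (43.9%) and CDKN1B (42.7%) were poor in GC.

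With the GC-content offset, 1 of the 8 genes was called higher (CDKN1A) and 5 lower at Nut 1h against Nut 0h, in place of 0 and 4. The shares of all tested genes called with the GC-content or the length offset are not given here. Counts under these offsets, here and for the lists below, therefore have no such share beside them. CDKN1C, CDKN2A and CDKN2C stayed called with smaller changes, CDKN2D lost its call, and CDKN1B and CDKN3 were added as lower. For Nut 10h against Nut 1h, CDKN1B moved to -0.23 and CDKN2B to 0.78, both still called. For Nut 10h against Nut 0h all 8 calls and directions stayed. The direction at Nut 1h of CDKN1B, CDKN2B, CDKN2D and CDKN3, and the call of CDKN1A, therefore depend on this choice.

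**Figure D3:**
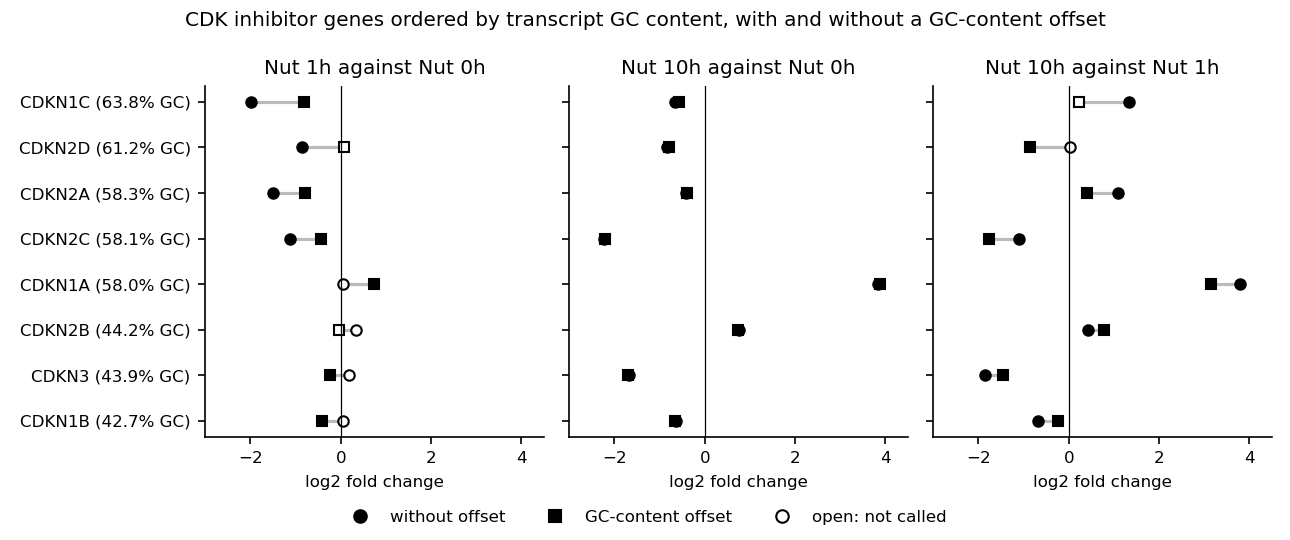
Log2 fold change (horizontal axis) of the 8 genes, ordered by the GC content of the longest transcript (vertical axis), without (circles) and with (squares) a GC-content offset; filled symbols were called and open ones were not. In the Nut 1h panel CDKN1C moves from -1.98 to -0.81 and CDKN1A from 0.05 to 0.73, whereas in the middle panel circles and squares coincide nearly throughout.

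Levels of different genes were compared as RPKM, counts per kilobase of the exon union, scaled to the TMM-normalised library size. At Nut 0h CDKN1A was highest at 107 and 93.9 RPKM. CDKN2A (20.3 and 17.5) and CDKN3 (18.1 and 17.6) followed and overlapped each other. CDKN2D (9.84 and 8.49) and CDKN2C (8.69 and 7.32) overlapped as well. CDKN1C (6.23 and 5.18), CDKN1B (3.30 and 3.29) and CDKN2B (1.11 and 1.19) closed the order without overlap. In vehicle, the gene of p21 was thus already the most abundant CDK inhibitor transcript per length.

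At Nut 1h CDKN3 (20.3 and 19.9 RPKM) stood second behind CDKN1A (99.5 and 108), and CDKN1C (1.32 and 1.58) overlapped CDKN2B (1.32 and 1.59) at the bottom. At Nut 10h CDKN1A reached 1471 and 1412 RPKM, while CDKN2A, the next gene, had 16.1 and 12.2. CDKN3 (5.57 and 5.63) then overlapped CDKN2D (5.88 and 4.38), and CDKN2C (1.99 and 1.40) was the lowest over the exon union, overlapping CDKN2B (1.76 and 2.12). The summed RPKM of the INK4 genes were 39.9 and 34.5 in vehicle, 16.5 and 17.2 after 1 h and 25.8 and 20.1 after 10 h. CDKN1A made up 68.5% and 68.6% of the RPKM of the CIP and INK4 genes together in vehicle, 82.4% and 83.0% after 1 h and 97.9% and 98.2% after 10 h. The summed RPKM of the CIP genes were 117 and 102 in vehicle and 104 and 113 after 1 h, so that the libraries of these conditions overlapped in the CIP sum and not in the INK4 sum. The sums and shares carry no GC-content offset and were not computed with one, under which CDKN1A was called higher at Nut 1h (0.73) and CDKN2D was not called (0.08), so that this contrast at Nut 1h holds for the values without the offset.

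The order and the shares depend on the gene length used. With the longest annotated transcript, of 1052 bases for CDKN2A against 3885 bases of exon union, CDKN2A was at 74.9 and 64.8 RPKM at Nut 0h and no longer overlapped CDKN3 (30.9 and 30.1), although all 8 genes kept their place at Nut 0h. At Nut 1h, CDKN1B (7.26 and 7.38) then stood above CDKN2D (5.05 and 5.62), and CDKN2B was last in place of CDKN1C. With the canonical transcript, a choice made after the data were seen, 4 of the 8 genes kept their place, and CDKN2C (26.4 and 22.2) and CDKN1B (12.7 and 12.6) stood above CDKN2D (10.4 and 8.96). At Nut 10h this length put CDKN2B (1.83 and 2.20) last and CDKN2C (6.03 and 4.25) above it. CDKN1A was first and CDKN2B last at Nut 0h with each of these lengths. The INK4 sum at Nut 0h was 95.5 and 82.6 RPKM with the longest and 119 and 102 with the canonical transcript. CDKN1A then made up 56.2% and 56.3%, or 52.1% in both libraries, of the CIP and INK4 genes at Nut 0h, and at least 95.8% at Nut 10h with either length.

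**Figure D4:**
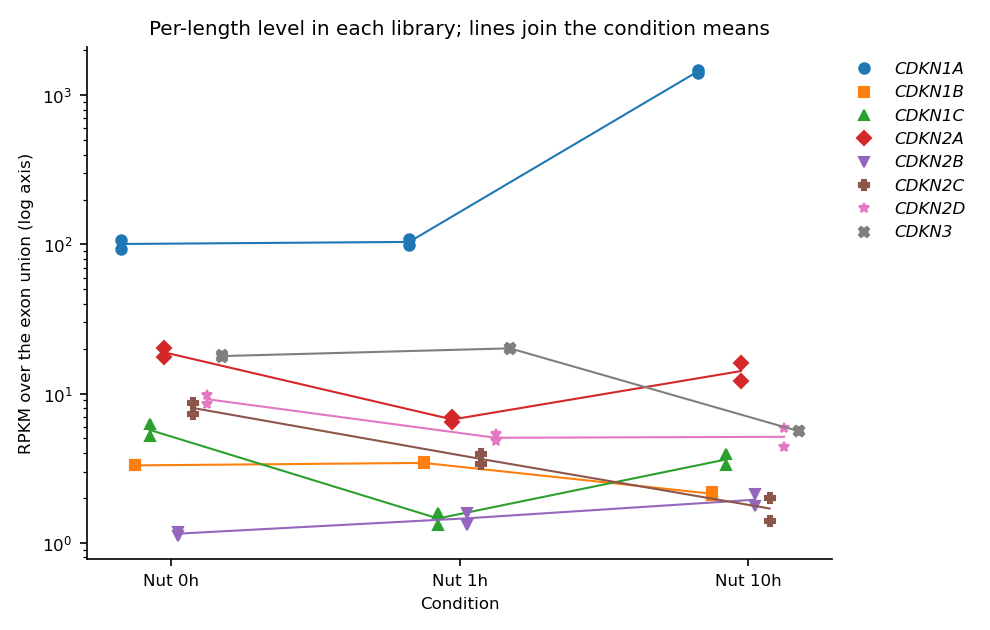
RPKM over the exon union (vertical log axis) of the 8 genes in each library (points) by condition (horizontal axis), with lines joining the condition means. CDKN1A rises from about 100 to over 1400, CDKN2C falls from the middle to the lowest place on this length, and CDKN1C and CDKN2A dip at Nut 1h.

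For each of the 8 genes, the 2 genes with the most similar profile were taken by the Euclidean distance between centred log2 CPM values over the 6 libraries, among 11576 tested genes with a mean of at least 100 normalised counts. CDKN1A was nearest to SULF2 (distance 0.54), a sulfatase of the cell surface, and to TP53I3 (0.567), a p53-inducible oxidoreductase. SULF2 had log2 fold changes of -0.37 at Nut 1h and 3.34 at Nut 10h against Nut 0h, and TP53I3 had -0.34 and 4.01. CDKN3 was nearest to MCM4 (0.0918), a subunit of the replicative helicase, and AURKA (0.109), a mitotic kinase, and CDKN2C to the helicase gene PIF1 (0.341) and to E2F1 (0.4). MCM4 had log2 fold changes of 0.17 and -1.70 at these times, beside 0.17 and -1.67 for CDKN3. CDKN1B was nearest to FNIP2 (0.0636) and FANCC (0.0728), and CDKN2B to FAM167A (0.184) and HBEGF (0.217).

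The neighbours of the remaining genes are given with the GC content of their transcripts. CDKN1C was nearest to DUSP23 (0.169, 64.0% GC) and MAP1S (0.171, 67.4% GC), CDKN2A to MPST (0.0616, 54.6% GC) and C19orf24 (0.0839, 62.9% GC), and CDKN2D to NCAPH2 (0.143, 61.3% GC) and TOMM40 (0.145, 58.3% GC). The neighbours of CDKN2C were GC-rich too (PIF1 61.9%, E2F1 61.6%), and those of CDKN1A had 59.4% (TP53I3) and 52.8% (SULF2). Those of the GC-poor genes CDKN1B, CDKN2B and CDKN3 ranged from 43.6% (FNIP2) to 54.0% (FAM167A), with FANCC at 52.1%, HBEGF at 50.6%, MCM4 at 47.0% and AURKA at 46.6%. Among the 8 genes themselves, CDKN1C and CDKN2A were each other's nearest, at a distance of 0.488, and CDKN1A was farthest from the rest, with CDKN2B nearest at 3.77. These distances describe 6 libraries in 3 conditions.

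The kinases and cyclins that the inhibitors bind were mostly lower at Nut 10h. Of 12 listed genes 11 were tested, and 9 were called lower and 1 higher against Nut 0h, beside 14.9% and 14.1% of all tested genes, with a median log2 fold change of -1.01. CCNE2, a cyclin E partner of CDK2, had 416 and 436 normalised counts in the vehicle libraries, 965 and 992 after 1 h and 57.0 and 87.5 after 10 h (log2 fold change -2.55 at Nut 10h, SE 0.16, adjusted p = 3.94e-08). CCNA2, the S-phase cyclin, fell by 2.01 on the log2 scale at Nut 10h (SE 0.09, adjusted p = 4.07e-09), CDK1 by 0.76 (adjusted p = 2.42e-05), CDK2 by 1.01 (adjusted p = 1.13e-06) and CDK4 by 0.57 (adjusted p = 0.000779). The gene called higher was CCND1, cyclin D1, at 0.45 (SE 0.09, adjusted p = 0.00185), while CCND3 fell by 0.86 (adjusted p = 3.92e-05). CDK6, at 0.40 on the log2 scale (adjusted p = 0.0564), did not pass, but the number called higher was 2 with the replicate block, with DESeq2, with the GC-content offset and when Nut 0h replicate 2 was left out, and 3 with no low-count filter and when Nut 10h replicate 1 was left out. The INK4 targets CDK4 and CDK6 thus differed in call, a difference that was not itself tested. CCND2 did not pass the low-count filter and had 31 counts in Nut 10h replicate 2 and at most 1 in any other library, the library that also held the COL1A2 counts.

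At Nut 1h, 4 of the 11 were called higher and 1 lower, with a median of -0.03, beside 34.5% and 32.3% of all tested genes, so that the share called higher was near that of all genes. CCNE2 rose by 1.20 (adjusted p = 2.41e-06), CDK1 by 0.77 (adjusted p = 4.93e-06), CDK6 by 0.57 (adjusted p = 0.00344) and CCNB1 by 0.53 (adjusted p = 0.000108), and CCND3 fell by 1.24 (adjusted p = 5.81e-07), all on the log2 scale. Transcripts of the 4 genes called higher had between 36.9% and 41.9% GC, and that of CCND3 had 56.2%. With the GC-content offset 1 was called higher and 3 lower, and which genes these were is not given here. With the 2 conditions alone in the fit, 2 were called lower. From Nut 1h to Nut 10h, 2 were called higher and 8 lower, with a median of -1.20, beside 34.2% and 33.7% of all tested genes.

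Among the 11 pocket proteins and E2F factors, 2 were called higher and 5 lower at Nut 10h against Nut 0h, with a median log2 fold change of -0.29. Of all tested genes 14.1% and 14.9% were so called, and the number called higher was near that share. E2F1, an activator of S-phase genes, had 3836 and 3228 normalised counts in the vehicle libraries, 1481 and 1743 after 1 h and 739 and 563 after 10 h. Like CDKN2C, it stepped down at each time without overlap (log2 fold change -1.13 at Nut 1h and -2.44 at Nut 10h). The E2F1 transcript has 61.6% GC, and its change with the GC-content offset is not given here. E2F2 (-2.71, adjusted p = 2.31e-09), E2F8 (-2.31, adjusted p = 2.31e-09) and RBL1 (-1.44, adjusted p = 5.23e-07) also fell at Nut 10h, as did E2F4 by 0.30 (adjusted p = 0.0369). The 2 genes called higher were RBL2 (0.31, adjusted p = 0.0377) and E2F7 (0.33, adjusted p = 0.05), close to the threshold. Neither was called by DESeq2, with no low-count filter, with the 2 conditions alone in the fit, or without Nut 0h replicate 1, either Nut 1h replicate or Nut 10h replicate 2, and 1 was called with DESeq2 size factors, library size alone or a CPM minimum of 1. The number called lower was 4 in place of 5 with the 2 conditions alone and without any of these 4 libraries. It was 6 with DESeq2 size factors, no low-count filter, a CPM minimum of 1 or without Nut 0h replicate 2. With the GC-content offset 3 were called higher and 7 lower. RB1 was at 0.20 (adjusted p = 0.154). At Nut 1h, 8 were called higher and 2 lower (E2F1 and E2F4) with a median of 0.41, beside 34.5% and 32.3% of all tested genes, and 4 were called higher with the GC-content offset. From Nut 1h to Nut 10h, 1 was called higher and 8 lower, with a median of -1.16, beside the same 34.2% and 33.7%.

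Of the 14 genes listed for the turnover of the CIP proteins, 2 were called higher and 5 lower at Nut 10h against Nut 0h, with a median log2 fold change of -0.16, beside 14.1% and 14.9% of all tested genes. The count called higher was near that share. SKP2, which marks p27 and p21 for degradation, fell by 0.90 (SE 0.10, adjusted p = 1.36e-05). DTL, the receptor that directs the CUL4 ligase to p21 on replicating chromatin, had 2189 and 2366 normalised counts in the vehicle libraries, 3722 and 3730.3 after 1 h and 364 and 432 after 10 h. It was highest at Nut 1h and lowest at Nut 10h (log2 fold change -2.52, SE 0.11, adjusted p = 2.21e-09). The DTL transcript has 42.2% GC, and its change with the GC-content offset is not given here. CDC20, an activator of the anaphase-promoting complex, fell by 1.65 (adjusted p = 1.35e-07), and CKS1B and CUL1, both of the SKP2 ligase, fell by 0.29 (adjusted p = 0.0362) and 0.28 (adjusted p = 0.0274). RNF123, which marks p27, rose by 0.38 (adjusted p = 0.00819). The other gene called higher was FBXW7, at 0.72 (adjusted p = 7.85e-05), which is best known for marking cyclin E and not a CIP protein, so that 1 of the 2 genes called higher lies outside what the list is named for. The number called lower was 3 without any one of 5 of the 6 libraries (all but Nut 10h replicate 2), and 1 was called higher without Nut 0h replicate 1 or Nut 10h replicate 1. The number called lower was also 3 with the 2 conditions alone, and 6 with the GC-content or the length offset. At Nut 1h, 7 were called higher and 4 lower with a median of 0.25 (2 higher with the GC-content offset), beside 34.5% and 32.3% of all tested genes, and from Nut 1h to Nut 10h, 3 were called higher and 9 lower with a median of -0.45, beside 34.2% and 33.7%.

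**Figure D5:**
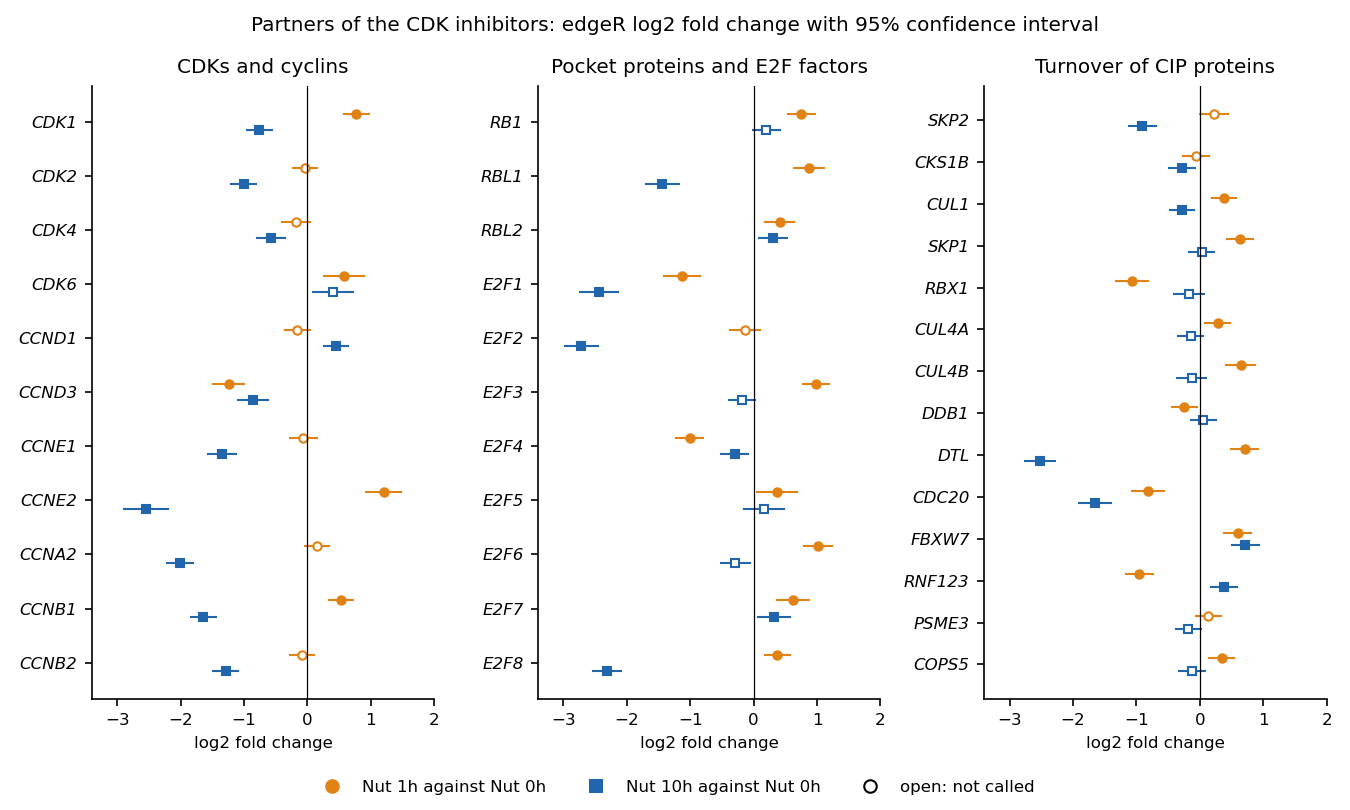
Log2 fold change against Nut 0h (horizontal axis) at Nut 1h (circles) and Nut 10h (squares), with 95% confidence intervals, of the tested genes of 3 lists: CDKs and cyclins, pocket proteins and E2F factors, and the turnover of CIP proteins (vertical axes). Filled symbols were called and open ones were not. At Nut 10h the squares of CCNE2 (-2.55), E2F2 (-2.71) and DTL (-2.52) lie farthest to the left of their panels.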

How the data were processed

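RNA-seq of 6 HCT116 libraries (Nut 0h, Nut 1h and Nut 10h, 2 replicates each) was analysed. The authors trimmed reads with Trim Galore (0.6.6), aligned them to GRCh37 with STAR (2.7.0f), counted them with featureCounts, per the submitters' processing notes, and deposited raw counts per gene. Strand setting and treatment of multimapping reads are not given in the sources used here. A table of the authors' own fold changes and p-values served for gene symbols alone.

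Counts were filtered (filterByExpr), normalised by TMM and tested with edgeR 4.0.16 (R 4.3.3), in a quasi-likelihood fit of condition over all 6 libraries with 3 residual degrees of freedom and Benjamini-Hochberg adjustment over 16565 genes. The tests were tried on simulated data. The study calls the replicates biological, and how separate their cultures were is not given in the sources used here, so that p-values measure the spread between these libraries. GENCODE v44 lifted to GRCh37 gave positions, lengths and GC content (97.4% of tested genes).

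The 8 genes, the lists and the rule for nearest profiles were chosen with earlier results of these data known. Alternatives were DESeq2 1.42.0, other scalings and filters, GC-content and length offsets (loess, span 0.4), a replicate block, a minimum absolute log2 fold change of 1, fits of 2 conditions and each library left out.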

Additional observations from a re-analysis of the deposited data

Results flagged for a closer look

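For 7 of the 8 CDK inhibitor genes the effect at Nut 10h differed from that at Nut 1h when the difference itself was tested with edgeR, which is the comparison of Nut 10h with Nut 1h since both effects are taken against the same vehicle libraries. On the log2 scale the effect at Nut 10h minus the effect at Nut 1h was 3.79 for CDKN1A, 1.32 for CDKN1C, 1.08 for CDKN2A and 0.42 for CDKN2B. It was -0.69 for CDKN1B, -1.11 for CDKN2C and -1.84 for CDKN3. CDKN2D was the exception, at 0.02. In the same comparison 34.2% of all tested genes were called higher and 33.7% lower, so that most tested genes were called there. Those called higher had a median GC content of 57.5% and those called lower one of 41.8%. With the GC-content offset CDKN1C did not pass (adjusted p = 0.138) and CDKN2D did, at -0.87, and CDKN2B did not pass with DESeq2 or without either of 2 libraries. The causes were not tested. No group had the 4 samples needed to look for single libraries that stand apart.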

How the results depend on the processing

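Across 120 alternatives for the log2 fold changes of the 8 genes in each comparison, both the sign and the side of the threshold stayed in 110 for Nut 1h against Nut 0h, 116 for Nut 10h against Nut 0h and 111 for Nut 10h against Nut 1h. The sign changed under the GC-content offset for CDKN1B (-0.43), CDKN2B (-0.05), CDKN2D (0.079) and CDKN3 (-0.23) at Nut 1h against Nut 0h and for CDKN2D (-0.87) at Nut 10h against Nut 1h. Values near 0 that were not called also changed sign, namely CDKN1A at Nut 1h without Nut 0h replicate 2 (-0.06) or Nut 1h replicate 2 (-0.02), and CDKN2D at Nut 10h against Nut 1h with library size alone (-0.02), a length offset (-0.23), or without Nut 1h replicate 1 (-0.06) or Nut 10h replicate 1 (-0.16). With a length offset 7 genes were called at Nut 1h in place of 4, with CDKN1A (0.30), CDKN2B (0.38) and CDKN3 (0.35) added as higher. A minimum absolute log2 fold change of 1 left 3 of 8 calls at Nut 10h against Nut 0h. The shares of all tested genes called under these alternatives are not given here. With canonical transcript lengths, added after the data were seen, 4 of 8 genes kept their place in the order of levels. Leaving out each library gave 4 calls at Nut 1h, 7 to 8 at Nut 10h against Nut 0h and 6 to 7 at Nut 10h against Nut 1h. The causes were not tested.

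Replicate numbers are shared between conditions, and deviations of same-numbered libraries correlated across genes at -0.15, 0.22 and -0.14 in the 3 comparisons, so that the numbers were not taken as pairs. With a replicate block 4, 8 and 7 of the 8 genes were called, with no call among these changed. Crossed numbers, added after the data were seen, gave 4 calls at Nut 1h against Nut 0h and 7 at Nut 10h against Nut 1h. At Nut 10h against Nut 0h, CDKN2A alone among the 8 genes lost its call when a library was left out.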
